A study of Homo sapiens with 3 samples.

Results

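Ribosome footprints were compared between HEK293T cells that expressed R273H p53 and HEK293T cells that expressed WT p53, with 3 dishes of cells on each side. The members of the comparison were the genes that passed a filter on low counts over the whole series of 9 dishes, which left 19820 genes tested of 63241 in the count table. HEK293T cells derive from human embryonic kidney and make the large T antigen of SV40, to which p53 binds. Cycloheximide, which halts cytosolic ribosomes on mRNA, was given to every dish for 2 min and kept in the wash at 100 μg/mL. Micrococcal nuclease (3 U for each μg of RNA, 30 min) then removed unprotected RNA, and the fragments left in monosomes were sequenced. The source label of every group gives a stable line and the genotype label a transient expression. The treatment label gives stable expression for WT, but for R273H and for G245S, the other mutant of the series, transfection with Lipo2000 of a wt construct 24 hr before collection. The methods of the study describe stable lines made with lentivirus for all 3 constructs, so the groups were taken from the sample titles. No cells without a construct were analysed here, and all values are R273H relative to WT p53. Each group was reverse transcribed as 1 pool, so a difference between groups and a difference between pools cannot be told apart.

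The protein p53 is a tumor suppressor that binds DNA as a tetramer and switches on genes of cell-cycle arrest, apoptosis, DNA repair and metabolism. Each pair of its subunits reads a short half-site, and full response elements hold a pair of half-sites close together. R273H replaces an arginine that touches DNA, and is among the mutations found most often in tumors. One of the genes p53 switches on is MDM2, which marks p53 for degradation, so that the activity of p53 feeds back on its own level. A footprint count rises both with more mRNA of a gene and with more ribosomes on each mRNA. No RNA-seq of these cells was used here, so these cannot be told apart, and in a bulk culture neither can fewer cells that express a gene and less RNA in each cell.

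Counts on genes summed to between 18758546 and 20010147 in the WT dishes and to between 23273977 and 24595215 in the R273H dishes. Levels are given as CPM (counts scaled to a common library total), scaled by TMM, and are not divided by gene length. Dishes of a group differed little, with a biological coefficient of variation of 2.58%, and pairs of dishes of a group had a chi-square per degree of freedom of 1.48 to 2.62, above counting noise alone. Of the markers of the line, VIM lay at 888 ± 5.65 CPM in WT and 914 ± 4.55 CPM in R273H (SD, n = 3), and NEFM at 275 ± 3.89 and 278 ± 6.40 CPM. Other markers of the line moved, with NEFL at -0.24 on the log2 scale (adjusted p = 4.9e-07), CDH2 at 0.12 (adjusted p = 8.6e-04) and PAX2 at 0.35 (adjusted p = 0.0359). LIN28B was at 0.06 (adjusted p = 0.229). The cells are labelled epithelial. KRT8 rose by 0.36 (adjusted p = 1.3e-06) and KRT18 was at 116 ± 4.86 and 114 ± 1.34 CPM, but KRT19 had 0 counts and CDH1 at most 211 counts in a dish. CLDN7 rose by 0.996 (adjusted p = 0.0102) from only 0.68 CPM. EPCAM, at 0.32, did not pass the test (adjusted p = 0.0984). Defining markers of blood, CD3E and HBB, were at 0 in all 6 dishes.

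In R273H against WT, 5707 genes passed a Benjamini-Hochberg adjusted p of 0.05 in edgeR's quasi-likelihood test (28.8% of those tested), 2807 higher (14.2%) and 2900 lower (14.6%). The dishes of the groups did not overlap in 41.2% of all genes tested, with R273H lower in 20.9% and higher in 20.3%. The median log2 fold change of all genes was -0.0024. Most of these differences were small, since the median size among genes called was 0.25 on the log2 scale. Of the genes called, 145 were at least 2-fold higher and 195 at least 2-fold lower. At 4-fold the sides were unequal, with 12 genes higher and 45 lower.

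**Figure D1:**
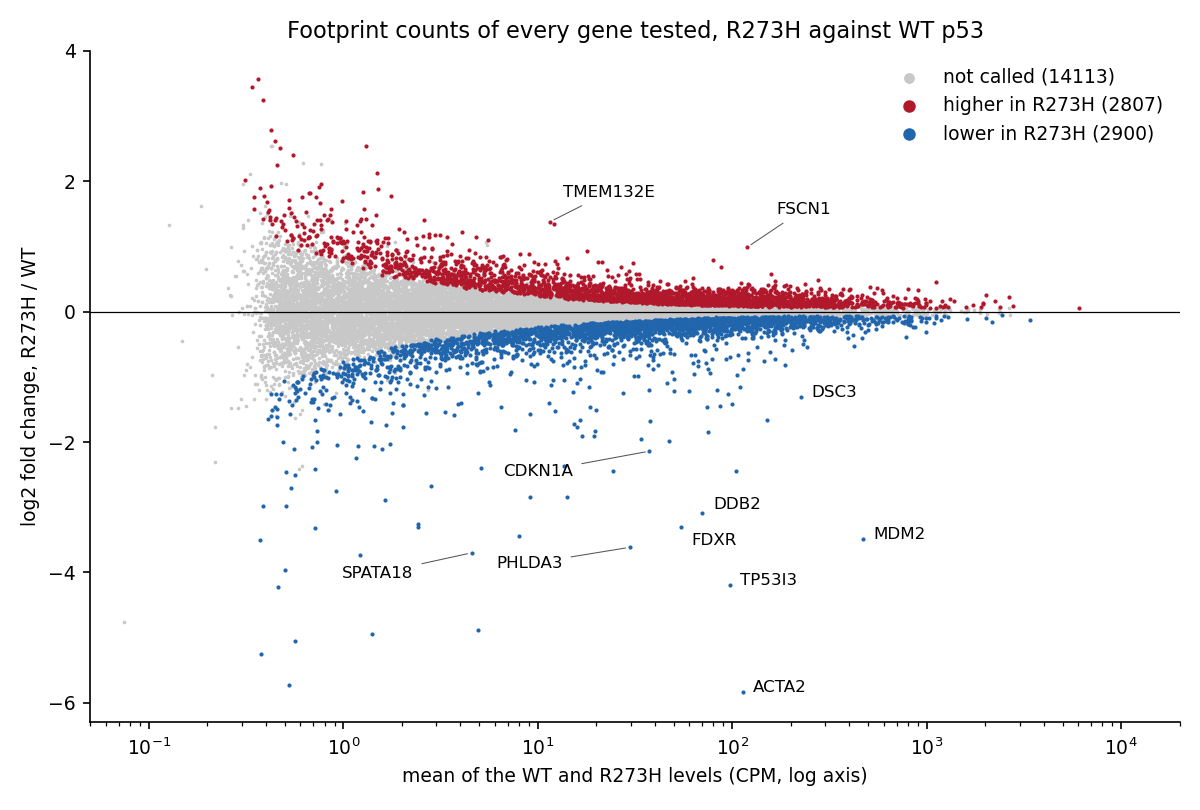
Log2 fold change of R273H over WT (vertical axis) against the mean level of both groups in CPM (horizontal log axis), one point per gene tested, coloured by the call at an adjusted p of 0.05. Decreases reach much further than increases at levels above 10 CPM, and the genes that stand lowest there, ACTA2, TP53I3, PHLDA3 and MDM2, lie between -5.83 and -3.49, while TMEM132E, the highest of the genes named by size, is at 1.38; 4 genes fall outside the axes.

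The genes p53 is known to switch on were mostly lower in R273H. Over 7 lists of p53 regulators, targets and linked long noncoding RNAs, 61 different genes were tested, of which 47 fell, 3 rose and 11 did not pass the test, against 14.6% lower among all genes. At least 2-fold decreases were seen in 28. Of the regulators, 5 of 8 fell and 2 rose. MDM2 (GRCh38, chromosome 12, positions 68808177 to 68845544), the ubiquitin ligase that marks p53 for degradation, was at 816, 852 and 913 CPM in the WT dishes and at 79.0, 73.4 and 77.7 CPM in the R273H dishes. The log2 fold change was -3.49 (SE 0.05, adjusted p = 5.7e-16). PPM1D, a phosphatase that dampens p53 signalling, fell by 0.82 on the log2 scale (adjusted p = 5.1e-13) and TRIAP1, an inhibitor of apoptosis, by 0.84 (adjusted p = 1.7e-15). The other direction was seen in MDM4, the partner of MDM2 that masks p53, which rose by 0.36 (adjusted p = 0.00121), from 12.4 ± 0.10 to 16.02 ± 1.77 CPM (SD, n = 3), and in RCHY1, a further ubiquitin ligase of p53, which rose by 0.16 (adjusted p = 0.0035).

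Targets of growth arrest followed. CDKN1A, the inhibitor of cyclin-dependent kinases known as p21, was at 63.5, 60.7 and 59.0 CPM in WT and at 13.5, 14.4 and 13.7 CPM in R273H, a 4.41-fold decrease (log2 -2.14, SE 0.05, adjusted p = 1.8e-22). BTG2, an antiproliferative protein that recruits deadenylases to mRNA, was at 56.7, 53.9 and 51.9 CPM in WT and at 14.5, 13.9 and 13.8 CPM in R273H, a 3.86-fold decrease (adjusted p = 4.2e-21). Of the 12 genes of this list, 10 fell and none rose, with a median log2 fold change of -1.04. Among them were PLK3 (-1.54), the repressor E2F7 (-1.25, adjusted p = 1.6e-15), SESN1 (-1.09) and SESN2 (-0.76), which restrain growth signalling when amino acids run short, and CCNG1 (-0.43). SFN, at -0.27 (adjusted p = 0.56), and PLK2, at -0.09 (adjusted p = 0.605), did not pass the test.

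The apoptosis list had the lowest median of the 7, -1.42, and all 13 of its members that were tested fell, while 3 further members did not pass the filter on low counts. TP53I3 (chromosome 2, positions 24077433 to 24085861), an oxidoreductase that produces reactive oxygen species, was at 190.3, 182 and 179 CPM in WT and at 10.5, 9.75 and 9.96 CPM in R273H, an 18.2-fold decrease (log2 -4.19, SE 0.05, adjusted p = 4.4e-31). PHLDA3, which holds the kinase AKT off the membrane, was at 56.5, 54.3 and 53.6 CPM in WT and at 4.60, 3.88 and 4.96 CPM in R273H, a 12.3-fold decrease (adjusted p = 2.6e-24). In both genes every WT dish stood at least 10 times above every R273H dish. Genes of the mitochondrial pathway of death changed less than TP53I3 and PHLDA3. BAX, which perforates the outer mitochondrial membrane, went from 152 ± 2.63 to 68.1 ± 1.91 CPM (log2 -1.16, adjusted p = 4.2e-21). APAF1, the scaffold of the apoptosome, went from 108 ± 3.63 to 39.2 ± 1.196 CPM (-1.47, adjusted p = 1.2e-21). PMAIP1 and BBC3, the BH3-only proteins NOXA and PUMA, were at -0.95 and -1.13 on the log2 scale (adjusted p = 8.9e-17 and 1.6e-08). FAS, a death receptor, fell by 1.53 on the log2 scale (adjusted p = 2.7e-11). PERP, a membrane protein of desmosomes, had the smallest decrease, -0.32 (adjusted p = 1.3e-06). Of 12 other BCL2 family genes, none rose and 5 fell (41.7%, against 14.6% of all genes), by 0.26 or less. Once dish trends with coding length and GC were taken out, 2 were called lower, and the median of -0.07 turned to 0.0027.

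**Figure D2:**
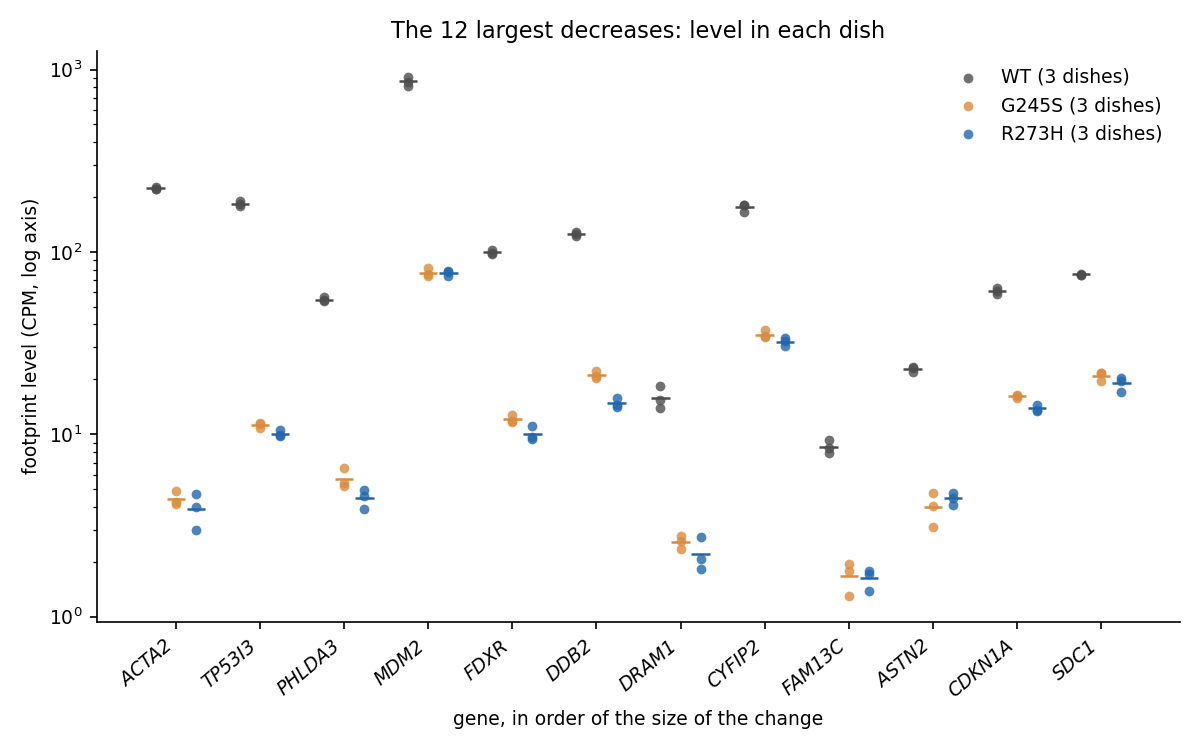
Footprint level in CPM (vertical log axis) in each dish for the 12 largest decreases of R273H against WT among called protein-coding genes with a mean of at least 100 counts and dishes that do not overlap, in order of size; points are dishes, bars the mean of 3. WT dishes (grey) sit above every R273H dish (blue) for all 12 genes, and the G245S dishes (orange) stand close to R273H, with the clearest gap in DDB2.

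DNA repair targets were led by DDB2, the subunit of the UV-damage sensor that first binds damaged DNA. DDB2 (chromosome 11, positions 47214465 to 47239217) was at 129, 122 and 126 CPM in WT and at 14.4, 15.9 and 14.2 CPM in R273H, an 8.48-fold decrease (log2 -3.08, SE 0.05, adjusted p = 1.4e-27). It was also lower in R273H than in G245S, where the dishes read 20.9, 22.3 and 20.3 CPM (log2 -0.51, SE 0.06, adjusted p = 4.4e-05 for the direct difference), and no R273H dish reached a G245S dish. XPC, which detects distorted DNA in the same repair pathway, fell by 1.04 (adjusted p = 4.0e-16). POLH, the polymerase that copies past UV lesions, fell by 1.21 (adjusted p = 2.7e-18). RPS27L, a ribosomal protein paralog, was at 126, 134 and 145 CPM in WT and at 54.6, 56.2 and 57.9 CPM in R273H (log2 -1.26, adjusted p = 2.5e-17). Of the 7 genes of the list 5 fell, and RRM2B (-0.07, adjusted p = 0.346) and FANCC (-0.0084, adjusted p = 0.926) did not pass the test.

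DDB2 also carried one of the rare promoters with a paired p53 half-site. The half-site motif, taken as its published consensus of 10 letters and searched on both strands, for which the motif is its own reverse complement, was looked for in RefSeq windows (GRCh38.p14) of 250 bases before to 50 bases after a transcript start. Of 35116 such windows, 6.63% held at least 1 half-site and 10 windows (0.0285%), of 10 genes, held a pair at most 13 bases apart. Of these 10 genes 5 had been tested, and they were looked at after their values were known. DDB2, LNCTAM34A and PURPL fell, DYNC2H1, a motor subunit of ciliary transport, rose by 0.26 (adjusted p = 2.6e-07), and MCC did not pass the test (0.11, adjusted p = 0.176). LNCTAM34A, a long noncoding RNA beside the gene of the miRNA miR-34a, was at 9.23, 10.5 and 8.71 CPM in WT and at 0.24, 0.28 and 0.43 CPM in R273H (log2 -4.88, SE 0.22, adjusted p = 1.2e-16), and the dishes did not overlap. Its locus lies on the opposite strand within MIR34AHG, the host transcript of miR-34a. How strand was treated in counting is not given in the sources used here. PURPL, a long noncoding RNA reported to restrain p53, was at 17.2, 18.3 and 18.9 CPM in WT and at 11.5, 10.7 and 9.83 CPM in R273H (log2 -0.76, adjusted p = 2.4e-08). The windows of the genes that fell and of the gene that rose are shown for comparison, with the half-sites in capitals.
DDB2, chr11:47214724-47215023, plus strand: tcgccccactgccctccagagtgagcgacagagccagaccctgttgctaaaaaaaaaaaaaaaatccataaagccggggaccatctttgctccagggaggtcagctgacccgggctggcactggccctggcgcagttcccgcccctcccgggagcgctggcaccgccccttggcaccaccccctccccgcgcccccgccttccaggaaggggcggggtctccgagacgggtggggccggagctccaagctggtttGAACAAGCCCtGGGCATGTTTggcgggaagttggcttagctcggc
LNCTAM34A, chr1:9181954-9182253, plus strand: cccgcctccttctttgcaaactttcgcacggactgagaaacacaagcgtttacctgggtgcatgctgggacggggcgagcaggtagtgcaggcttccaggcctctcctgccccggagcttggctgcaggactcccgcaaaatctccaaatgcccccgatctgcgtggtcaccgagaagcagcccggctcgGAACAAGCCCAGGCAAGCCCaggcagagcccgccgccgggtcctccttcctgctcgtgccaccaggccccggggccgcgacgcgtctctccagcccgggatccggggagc
PURPL, chr5:27472042-27472341, plus strand: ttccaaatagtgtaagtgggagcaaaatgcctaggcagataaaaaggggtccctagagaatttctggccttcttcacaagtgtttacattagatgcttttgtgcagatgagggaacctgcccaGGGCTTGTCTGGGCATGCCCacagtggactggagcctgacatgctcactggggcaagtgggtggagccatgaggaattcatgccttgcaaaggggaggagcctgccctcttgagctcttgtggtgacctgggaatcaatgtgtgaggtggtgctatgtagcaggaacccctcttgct
DYNC2H1, chr11:103109176-103109475, plus strand: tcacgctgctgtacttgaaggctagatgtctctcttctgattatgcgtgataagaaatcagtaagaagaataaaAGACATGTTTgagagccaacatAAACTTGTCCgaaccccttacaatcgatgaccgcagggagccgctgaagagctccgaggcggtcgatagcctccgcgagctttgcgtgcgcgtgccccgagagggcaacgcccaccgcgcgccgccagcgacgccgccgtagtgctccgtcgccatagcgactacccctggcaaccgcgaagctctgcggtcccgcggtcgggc
In DDB2 the pair began 6 and 17 bases after the transcript start with a gap of 1 base, in LNCTAM34A at -60 with no gap, in PURPL at -127 with no gap, and in DYNC2H1 at -176 with a gap of 12 bases. Of the 12 genes with the largest decreases, 11 had a window and 4 (DDB2, FDXR, FAM13C and ACTA2) held a half-site in at least 1, against 8.06% of all genes with a window. Of the 12 with the largest increases 8 had a window and 0 held one. A match is a match of letters only, and every letter of the consensus had to fit. Elements inside the windows that depart from the consensus were therefore not counted, and response elements outside these windows were not searched. MDM2, among the largest decreases, held 0 half-sites in its windows under this rule.

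Metabolic targets fell in 10 of 13 genes, with a median of -0.90. FDXR, which passes electrons to mitochondrial cytochromes, was at 103, 97.1 and 98.1 CPM in WT and at 9.47, 11.2 and 9.62 CPM in R273H, a 9.84-fold decrease (log2 -3.30, SE 0.06, adjusted p = 8.8e-27). PANK1, the first enzyme of coenzyme A synthesis, fell by 1.51 (adjusted p = 5.7e-16), and GLS2, which makes glutamate from glutamine, by 1.46 (adjusted p = 1.5e-09). TIGAR, which lowers the flux of glycolysis, fell by 0.90 (adjusted p = 5.7e-11). SCO2, an assembly factor of cytochrome oxidase, was at 0.06 (adjusted p = 0.241), and CPT1C and ACAD11 did not pass the test either.

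Among targets of secretion, membrane and autophagy, 6 of 9 fell and STEAP3, a metalloreductase, rose by 0.16 (adjusted p = 0.00811). SPATA18, which takes part in clearing damaged mitochondria, fell by 3.70 on the log2 scale (SE 0.25, adjusted p = 2.6e-10) from a mean of 8.48 CPM. EDA2R, a receptor of the TNF family, fell by 3.26 (adjusted p = 2.3e-11), and DRAM1, a lysosomal protein of autophagy, was at 15.4, 18.3 and 13.98 CPM in WT and at 1.83, 2.75 and 2.07 CPM in R273H (log2 -2.84, adjusted p = 1.4e-15). GDF15, a secreted stress hormone, is low in these cells, at 0.91 CPM in WT and 0.21 CPM in R273H (log2 -2.11, SE 0.42, adjusted p = 0.00034). VCAN, a matrix proteoglycan and the most abundant member, went from 288 ± 8.98 to 198 ± 5.66 CPM (log2 -0.54, adjusted p = 2.6e-14). Of 5 long noncoding RNAs linked to p53, 4 fell, among them MIR34AHG, the host transcript of miR-34a, by 2.89 (SE 0.28, adjusted p = 5.4e-09) and TP53TG1 by 0.91 (adjusted p = 1.2e-05). MIR34AHG overlaps LNCTAM34A on the opposite strand, so their decreases may rest on shared reads.

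Large decreases were not limited to the genes of these lists. ACTA2, the actin of smooth muscle, had the largest decrease of all genes named by size: 226, 222 and 220.1 CPM in WT and 4.72, 4.00 and 2.98 CPM in R273H, a 56.8-fold decrease (log2 -5.83, SE 0.06, adjusted p = 4.8e-31). ACTA2 (chromosome 10, positions 88935074 to 88991339, minus strand) overlaps FAS, itself lower, on the opposite strand, and how strand was treated in counting is not given in the sources used here. CYFIP2, a subunit of the complex that drives actin branching, was at 181, 182 and 165 CPM in WT and at 33.7, 32.4 and 30.4 CPM in R273H (log2 -2.45, adjusted p = 6.5e-25). SDC1, a heparan sulfate proteoglycan of the cell surface, was at 75.1, 75.0 and 75.9 CPM in WT and at 20.4, 19.6 and 17.1 CPM in R273H, a 3.95-fold decrease (adjusted p = 8.6e-22). ASTN2, a membrane protein of migrating neurons, fell by 2.36 (adjusted p = 5.7e-17), SYT1, the calcium sensor of synaptic vesicles, by 1.77 (adjusted p = 6.2e-16), and FAM13C by 2.39 (adjusted p = 1.1e-12).

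The most abundant protein-coding genes that fell at least 1.5-fold, after MDM2, were the following. DSC3, a desmosomal cadherin, was at 314, 319 and 330 CPM in WT and at 132, 128 and 129.9 CPM in R273H, a 2.47-fold decrease (log2 -1.31, SE 0.03, adjusted p = 3.8e-24). COL4A5, a collagen chain of basement membranes, was at 233, 244 and 239.8 CPM in WT and at 132, 138 and 136 CPM in R273H (log2 -0.82, adjusted p = 6.8e-19). TYMS, which makes thymidylate for DNA synthesis, was at 215, 203 and 206 CPM in WT and at 121, 126 and 128 CPM in R273H (log2 -0.73, adjusted p = 3.5e-17). TYMS overlaps ENOSF1 on the opposite strand. ISYNA1, the first enzyme of inositol synthesis, fell from 243 to 161 CPM in the means of 3 dishes (log2 -0.59, SE 0.03, adjusted p = 1.9e-16). Groups did not overlap in any of these 4 genes.

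Among protein-coding genes that averaged 100 counts or more and whose dishes did not overlap, the 12 largest increases ranged from a log2 fold change of 0.78 (LPAR3) to 1.38 (TMEM132E). TMEM132E, a membrane protein of sensory and neural cells, was at 6.80, 6.23 and 6.23 CPM in WT and at 16.8, 17.4 and 16.04 CPM in R273H, a 2.60-fold increase (log2 1.38, SE 0.09, adjusted p = 4.2e-13). EMILIN2, a glycoprotein of the extracellular matrix, was at 6.40, 7.08 and 6.91 CPM in WT and at 15.7, 17.4 and 19.0 CPM in R273H, a 2.55-fold increase (adjusted p = 3.3e-12). FSCN1 (chromosome 7, positions 5592816 to 5606655), which bundles actin filaments in filopodia, was the most abundant of those with a 1.5-fold increase or more, at 80.9, 81.4 and 78.1 CPM in WT and at 158, 163 and 156 CPM in R273H (log2 0.99, SE 0.03, adjusted p = 5.0e-19). The lowest R273H dish was above the highest WT dish in all 3 genes, as the rule that named them required.

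Several of the others encode receptors, ligands and secreted proteins. ITPR3, the channel that releases calcium from the endoplasmic reticulum, rose 1.91-fold (adjusted p = 1.5e-11). HHIP, a decoy receptor of hedgehog ligands, rose 1.85-fold (adjusted p = 6.1e-08), and DLL1, a ligand of Notch, 1.78-fold (adjusted p = 9.4e-06). LPAR3, a receptor of lysophosphatidic acid, rose 1.72-fold (adjusted p = 2.1e-07), MMP2, a protease of basement membrane collagen, 1.73-fold (adjusted p = 8.1e-06), and LBH, a transcription cofactor, 1.78-fold (adjusted p = 3.2e-06). CRABP2, which carries retinoic acid to the nucleus, was at 59.7, 58.8 and 56.2 CPM in WT and at 105, 94.2 and 102 CPM in R273H (log2 0.78, adjusted p = 6.1e-15). ENSG00000288681 (0.85, adjusted p = 1.4e-05) overlaps IFITM2 and IFITM1 on the same strand, so its counts may belong to them. BCHE, a cholinesterase, rose by 0.75 (adjusted p = 3.9e-11) and ASS1, which makes the precursor of arginine, by 0.62 (adjusted p = 4.9e-10); ASS1 has 14 annotated pseudogenes.

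**Figure D3:**
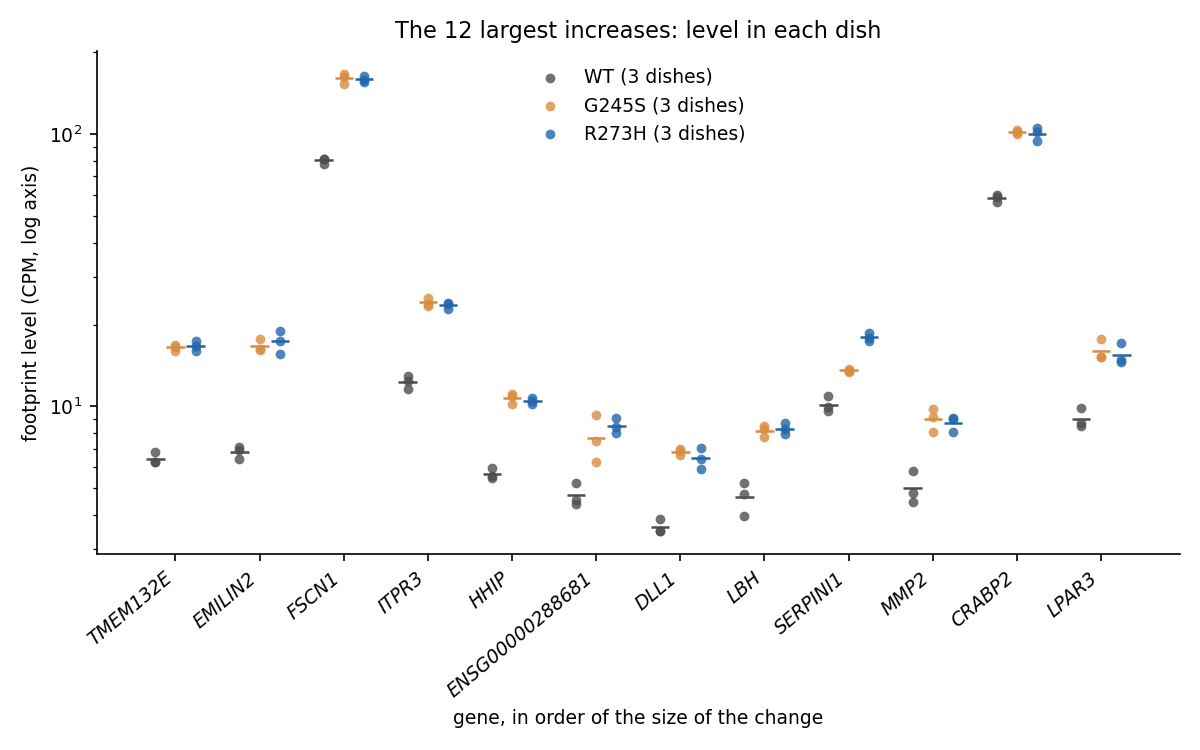
Footprint level in CPM (vertical log axis) in each dish for the 12 largest increases of R273H against WT under the same limits on level and overlap, in order of size; points are dishes, bars the mean of 3. R273H dishes (blue) sit above every WT dish (grey) for all 12 genes, and SERPINI1 is the one where R273H also stands clear above G245S (orange).

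Genes that supply amino acids and charge tRNAs rose together in R273H. These genes are known targets of ATF4, a transcription factor whose own mRNA is translated more when initiation is limited. ATF4 itself rose from 104 ± 1.63 to 132 ± 0.66 CPM (SD, n = 3; log2 0.34, SE 0.03, adjusted p = 1.1e-09). Of 12 amino acid transporters 9 rose and none fell, with a median log2 fold change of 0.34. SLC7A5, the exchanger that imports leucine, was at 68.6, 68.7 and 63.4 CPM in WT and at 108, 111 and 105 CPM in R273H, a 1.61-fold increase (log2 0.69, SE 0.04, adjusted p = 4.3e-13). SLC7A11, the cystine importer, rose by 0.52 (adjusted p = 7.0e-06) and SLC3A2, the shared heavy chain of both, by 0.25 (adjusted p = 3.9e-08).

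Of 18 enzymes of serine, asparagine and one-carbon synthesis 14 rose and 1 fell, with a median of 0.21. ASNS, which makes asparagine, was at 134, 138 and 144 CPM in WT and at 193, 194 and 190.2 CPM in R273H (log2 0.47, SE 0.03, adjusted p = 1.2e-12), with no overlap. ALDH1L2, a mitochondrial folate enzyme, rose by 0.68 (adjusted p = 1.9e-10), PCK2 by 0.47 (adjusted p = 1.3e-06) and CTH, which makes cysteine, by 0.35 (adjusted p = 3.5e-05). Of 20 cytosolic aminoacyl-tRNA synthetases 16 rose and 1 fell. IARS1, which charges the isoleucine tRNA, was at 477, 479.7 and 499 CPM in WT and at 619, 619 and 640.3 CPM in R273H (log2 0.37, SE 0.02, adjusted p = 1.4e-12). GARS1 (0.29), MARS1 (0.26) and VARS1 (0.25) followed, and the one that fell was SARS1, the synthetase for serine (-0.21). These shares compare with 14.2% higher among all genes.

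Of 18 regulators of the same response 6 were higher (33.3%, against 14.2% of all genes). Lower were 3 (16.7%), near the 14.6% of all genes. CHAC1, which degrades glutathione, rose by 0.84 (adjusted p = 0.00104), NUPR1, a small stress protein, by 1.07 (SE 0.31, adjusted p = 0.00911) from only 0.62 CPM, and STC2, a secreted glycoprotein, by 0.47 (adjusted p = 1.6e-08). SESN2, which is also a p53 target, fell, as did ATF5 (-0.39, adjusted p = 7.2e-05) and DDIT4 (-0.16, adjusted p = 0.00848). DDIT3 (0.15, adjusted p = 0.551) and TRIB3 (0.17, adjusted p = 0.145) did not pass the test. Against a minimum change of 1.2-fold, 3 of the transporters, 3 of the enzymes and 1 of the synthetases were still called.

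**Figure D4:**
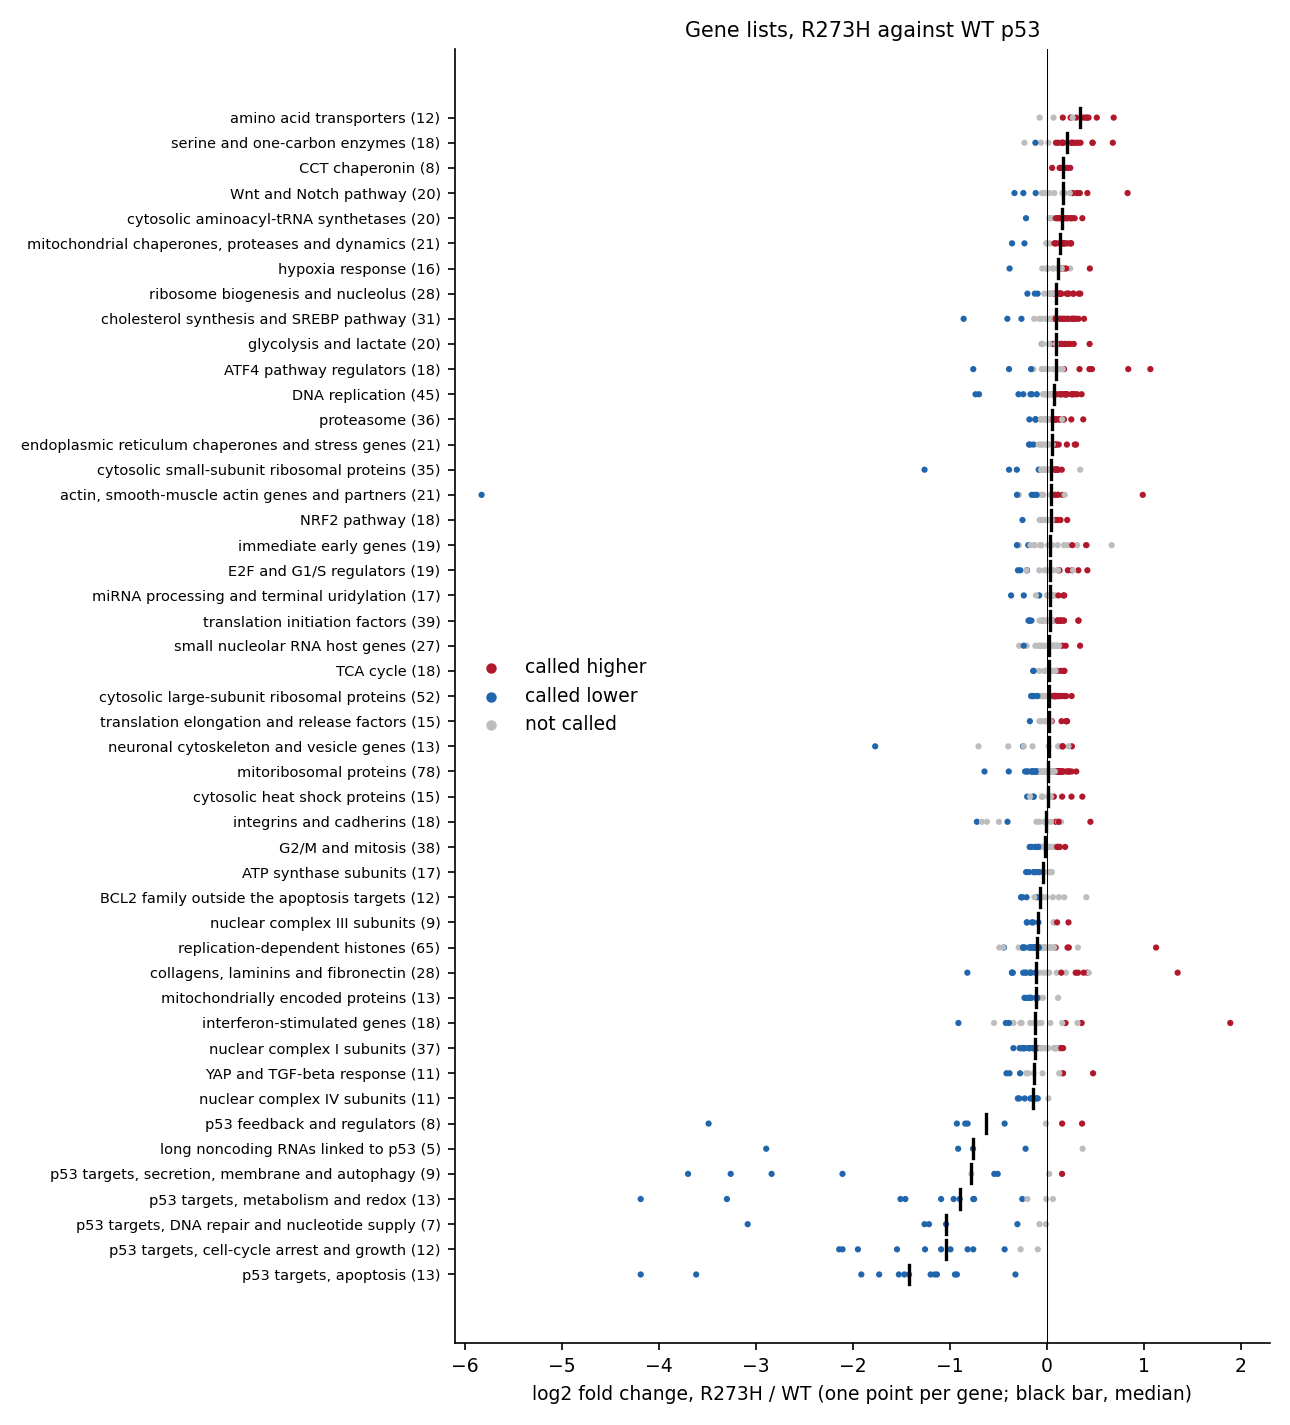
Log2 fold change of R273H over WT (horizontal axis) for every tested member of the gene lists with at least 8 genes tested and of the lists of p53 targets; points are genes, red called higher, blue called lower, grey not called, and black bars are medians, with the number tested in brackets. The 7 p53 lists lie apart at the bottom, with medians from -1.42 to -0.63, and amino acid transporters, at 0.34, and serine and one-carbon enzymes, at 0.21, at the top.

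Of 28 genes of ribosome biogenesis 17 rose (60.7%, against 14.2% of all genes) and 3 fell, with a median of 0.10, and UTP4, a factor of small-subunit assembly, rose by 0.35 (adjusted p = 4.9e-10). All 8 subunits of the CCT chaperonin, which folds actin and tubulin, rose, from CCT7 (0.06, adjusted p = 0.0482) to TCP1 (0.24, SE 0.02, adjusted p = 9.8e-09). Other chaperones were mixed, with 4 higher (26.7%) and 3 lower (20%) of 15 cytosolic heat shock proteins. Of 21 genes of the endoplasmic reticulum 7 were higher (33.3%) and 3 lower (14.3%, near the 14.6% of all genes). Of 52 large-subunit ribosomal proteins 21 rose and 7 fell, and of 35 small-subunit ones 12 rose and 4 fell. FAU, whose product is cut into a ribosomal protein and a ubiquitin-like one, fell from 887 to 678 CPM (log2 -0.39, adjusted p = 1.5e-13) and RPS19 by 0.31 (adjusted p = 3.9e-10), while RPL5, which can bind MDM2, rose by 0.19 (adjusted p = 6.7e-07). Initiation factors rose in 12 and fell in 4 of 39 genes, led by EIF3L (0.33, adjusted p = 1.6e-10) and EIF3E (0.33, adjusted p = 9.8e-08). Ribosomal protein counts depended on the correction for length and GC together, since 39 large-subunit and 27 small-subunit genes were called higher once that trend was taken out, and many have processed pseudogenes that can share reads.

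Mitochondrial genes split by role. Subunits of the respiratory chain were mostly lower: 22 of 37 nuclear subunits of complex I fell and 5 rose (median -0.12), 10 of 11 of complex IV fell (median -0.14), and 10 of the 13 proteins encoded in mitochondrial DNA fell, with none rising (median -0.11). Those 13 proteins are made inside mitochondria, not by cytosolic ribosomes, and how far their counts reflect footprints was not tested. COX6B1, a subunit of cytochrome oxidase, was at 311, 312 and 314 CPM in WT and at 250.3, 252 and 261 CPM in R273H (log2 -0.30, SE 0.03, adjusted p = 4.5e-10), with no overlap. NDUFA13, a complex I subunit also studied as a cell-death regulator, fell by 0.34 (adjusted p = 1.1e-08), and its locus overlaps YJEFN3 on the same strand. MT-CYB, the complex III subunit made in mitochondria, went from 421 to 359 CPM (log2 -0.23, adjusted p = 2.4e-08). In contrast, 14 of 21 chaperones, proteases and dynamics factors rose, with HSPD1, the chaperonin HSP60, from 1842 to 2193 CPM (log2 0.25, SE 0.02, adjusted p = 1.1e-09) and DNM1L, the fission GTPase, by 0.25 (adjusted p = 2.4e-06), while FIS1, a fission adaptor, fell by 0.36 (adjusted p = 3.8e-07).

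Of all genes tested 14.6% fell, but nuclear subunits of the chain are short, and in the shortest of 10 bins of coding length 33.8% fell. The median coding length was 435 nt in the complex I list and 252 nt in the complex IV list, against 1398 nt over the protein-coding genes tested. With the trend taken out, 16 complex I genes were lower and 9 higher, 4 complex IV genes were lower and 1 higher, and 10 mitochondrially encoded genes were lower and 1 higher. Among ATP synthase subunits 8 of 17 fell and none rose; the median of -0.04 became 0.02 in that fit, and that of complex III, with 5 of 9 lower at -0.09, became 0.03. Mitoribosomal proteins were mixed, with 26 of 78 higher and 17 lower, and 44 and 5 after the correction. All calls among the respiratory subunits were lost in a test against a minimum change of 1.2-fold.

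Replication-dependent histones, made in S phase from mRNAs without a poly(A) tail, were lower in R273H. Of 65 genes tested 36 fell and 4 rose, with a median log2 fold change of -0.10. Summed over the family, the level was 17171, 16922 and 17558 CPM in the WT dishes and 15800, 15936 and 16478 CPM in the R273H dishes, a difference of -6.66% between the means, with no overlap (two-sided exact permutation p = 0.1, the smallest that 3 dishes against 3 can give). Copies within a class are nearly identical and may share reads, so values of single genes are uncertain. The sum of the linker histones H1 differed by -12.5%, from 2025 ± 75.0 to 1772 ± 72.0 CPM (SD, n = 3), and the sums of the core classes by -5.42% (H2A), -6.98% (H2B), -5.78% (H3) and -5.41% (H4). H4C16 was at 208, 202 and 208 CPM in WT and at 172.8, 172.7 and 173.2 CPM in R273H (log2 -0.25, adjusted p = 5.8e-08). H4C7, at about 1 CPM, was one of the genes that rose (1.13, SE 0.32, adjusted p = 0.00786).

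The same genes were then set against G245S. R273H was lower than G245S in 1.86% of all genes tested and in 47 of these 65 genes, with a median difference of -0.15 in log2. The summed level in the G245S dishes was 18322, 17818 and 17297 CPM, above every R273H dish. Histone genes are short and rich in GC, with medians of 387 nt and 60.9%. Other protein-coding genes within the same range of length and GC content, 981 in all, had a median of -0.10 against WT, with 353 called lower, and of -0.05 against G245S, where 60 were called lower. With the trend taken out, the median of the histones against WT was 0.01, with 3 lower and 18 higher, whereas against G245S it was -0.10, with 24 lower.

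Of 45 DNA replication genes 20 rose (44.4%, against 14.2% of all genes) and 7 fell (15.6%, against 14.6%), with a median of 0.07, and the largest changes were the decreases of TYMS and of LIG1, the ligase that joins Okazaki fragments (-0.70, SE 0.04, adjusted p = 2.3e-15). POLE2 rose by 0.36 (adjusted p = 1.7e-06) and PRIM1, a primase subunit, by 0.31 (adjusted p = 2.4e-07). Of 38 genes of G2/M and mitosis 5 rose (13.2%) and 7 fell (18.4%), near the shares of all genes and none by more than 0.19. Of 19 regulators of G1/S 6 rose and 4 fell, with CCND1, cyclin D1, at 53.6, 55.2 and 51.3 CPM in WT and 71.0, 75.2 and 67.7 CPM in R273H (log2 0.42, SE 0.05, adjusted p = 7.0e-08). The inhibitors CDKN1B and CDKN2C fell by 0.27 (adjusted p = 1.1e-05) and 0.30 (adjusted p = 1.6e-06).

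Of 31 genes of cholesterol synthesis and the SREBP pathway 18 rose (58.1%, against 14.2% of all genes) and 3 fell, with ACACA, which makes malonyl-CoA, up by 0.38 (adjusted p = 7.5e-12) and FASN, fatty acid synthase, from 802 to 1007 CPM (log2 0.33, adjusted p = 1.6e-10). TM7SF2, a sterol reductase, fell by 0.86 (adjusted p = 6.1e-09). Of 20 genes of glycolysis and lactate 12 rose and none fell, with SLC16A1, a lactate carrier, up by 0.28 (adjusted p = 1.2e-10). MT2A, a metal-binding metallothionein, went from 39.5 ± 3.00 to 24.1 ± 0.57 CPM (SD, n = 3) with no overlap (log2 -0.71, adjusted p = 1.9e-10).

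Of 7 NF-kB response genes tested 0 were called in edgeR's test, 1 at an unadjusted p under 0.05 and 0 by DESeq2, with log2 fold changes from -0.49 to 0.22. NFKB1, a subunit of the factor, was at 31.9 CPM in WT and 32.4 CPM in R273H (0.03, adjusted p = 0.778). Of 18 interferon-stimulated genes 3 rose and 3 fell (16.7% each way), close to the 14.2% and 14.6% of all genes. IFI27 rose by 1.89 (SE 0.48, adjusted p = 0.00322) from only 0.16 to 0.59 CPM, and OAS3, a sensor of double-stranded RNA, fell by 0.91 (adjusted p = 3.3e-05). Of 28 collagens, laminins and fibronectin genes 6 rose and 11 fell. Of the 17 tested genes of miRNA processing and terminal uridylation 3 rose and 3 fell (17.6% each way), also close to all genes. TARBP2, a partner of Dicer, was at -0.24 (adjusted p = 8.1e-04) and DICER1 at 0.18 (adjusted p = 0.00256).

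Calls followed coding length and GC content across all protein-coding genes. In 10 equal bins of coding length, the median log2 fold change rose from -0.09 in the shortest (30 to 510 nt) to 0.04 in the longest (3537 nt and more). In the shortest bin 7.27% of 1362 genes were called higher and 33.8% lower, and in the longest 23.0% and 12.9%. The difference between the longest and the shortest bin, measured in each dish as the median log2 deviation from the mean of all dishes, was -0.07, -0.06 and -0.08 in WT and 0.06, 0.07 and 0.04 in R273H. The groups did not overlap on this measure, and the G245S dishes lay between them at 0.0020, 0.02 and 0.03 (exact permutation p = 0.1 against either, the smallest possible).

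By GC content of the coding sequence, the median fell from 0.04 in the lowest bin (30.7% to 41.2%) to -0.03 in the highest (64.4% and more). Measured per dish, the highest less the lowest bin was 0.11, 0.04 and -0.09 in WT and -0.06, -0.04 and -0.13 in R273H. Here the groups overlapped (exact permutation p = 0.3), and dish 3 was the lowest of each group, G245S included. R273H lay below WT and below G245S at each dish number, but numbers were not taken to pair dishes.

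**Figure D5:**
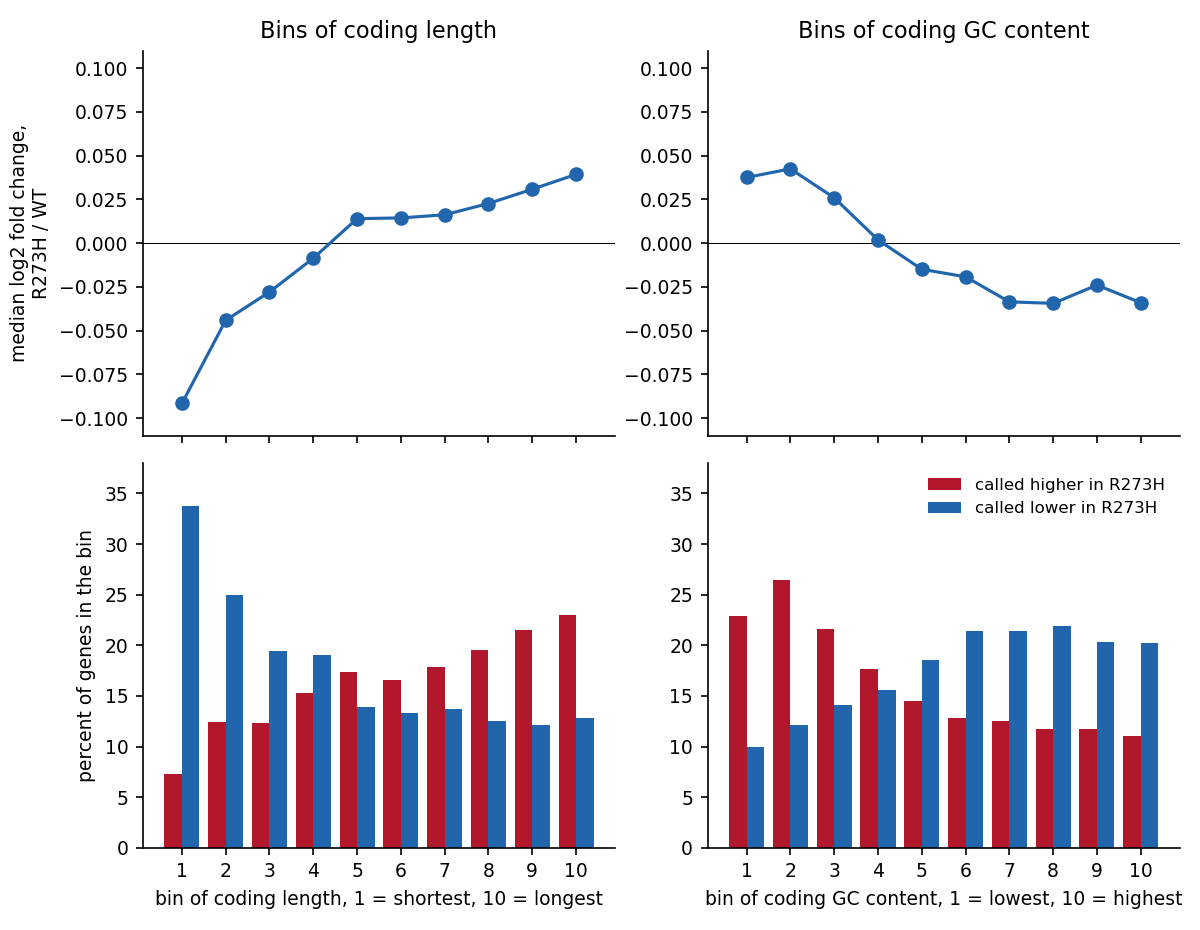
Upper panels, median log2 fold change of R273H over WT in 10 equal bins of coding length (left) and coding GC content (right); lower panels, percent of the genes in each bin called higher (red) and lower (blue). The shortest bin is at -0.09 with 33.8% of genes lower, the longest at 0.04 with 23.0% higher, and the GC panels run the opposite way.

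GGCUGG is the word at the centre of an RNA motif that the study describes for WT and mutant p53, with further enrichment in the mutants. Here it was counted in the 3′ untranslated region of the canonical transcript, in the sense direction only. The study searched its motif on both strands. By the number of these words, changes showed no steady order. Genes with 0, 1, 2 and 3 or more words had medians of -0.0079, 6.9e-04, -0.0040 and 0.0048, and 16.6%, 15.6%, 15.4% and 16.9% of them were called higher. Within 4 equal bins of region length, medians of the classes lay between -0.04 and 0.01. Which transcripts mutant p53 binds in these cells was not analysed here. By class of gene, 1678 long noncoding RNAs held 53 genes called higher and 200 lower. Both fractions are below those of all genes tested, 14.2% higher and 14.6% lower. Long noncoding RNAs took a share of the counts of 0.909% ± 0.0059 in WT and 0.851% ± 0.0046 in R273H (SD, n = 3). Of 131 genes annotated as miscellaneous RNA, short RNAs that are not translated, 39 rose and none fell, and their share went from 0.0708% ± 0.0026 to 0.0832% ± 0.0022. The share of protein-coding genes was 95.6% in both groups.

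Tested directly, R273H and G245S differed in 513 genes (2.59% of those tested), 145 higher and 368 lower in R273H. That count rested on single dishes, falling to 162 without G245S dish 1, 204 without G245S dish 2, and 222, 233 and 295 without R273H dish 1, 2 or 3. The comparisons of each mutant with WT share the WT dishes, so their values are given side by side only. MDM2 was at -3.49 in R273H and -3.48 in G245S against WT, ACTA2 at -5.83 and -5.65, and FSCN1 at 0.99 and 1.01. DDB2 (-3.08 and -2.57) and SERPINI1 (0.83 and 0.42) were the genes among the 24 named by size that differed between the mutants. SERPINI1, an inhibitor of proteases secreted by neurons, was at 9.93, 9.62 and 10.9 CPM in WT, at 13.6, 13.4 and 13.8 CPM in G245S and at 18.66, 17.92 and 17.42 CPM in R273H, in 3 separate bands (log2 difference between mutants 0.41, SE 0.07, adjusted p = 0.00191). LNCTAM34A, named above, was also lower in R273H than in G245S (-1.41, adjusted p = 0.0211), at 0.76, 0.66 and 1.12 CPM in the G245S dishes.

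Among protein-coding genes with at least 100 counts on average, the largest differences between the mutants were in genes of modest level. DPYSL4, a protein of growth-cone signalling linked to p53, was at 19.0, 20.5 and 15.7 CPM in WT, 12.2, 11.6 and 11.3 CPM in G245S and 8.82, 9.30 and 8.54 CPM in R273H (log2 -0.39 between mutants, adjusted p = 0.0241). That call was lost in 6 of 18 alternatives, without G245S dish 1 or 2, without any one R273H dish, and at a minimum fold of 1.2. CLK4, a kinase of splicing factors, was at 18.0, 17.4 and 20.1 CPM in WT and 17.9, 19.0 and 18.4 CPM in R273H, where it did not differ by the test (adjusted p = 0.996), and lower, at 13.9, 12.8 and 13.8 CPM, in G245S (log2 0.45 between mutants, adjusted p = 0.00076). MAPK8IP3, a scaffold of JNK signalling and axonal transport, was 0.45 higher in R273H than in G245S (adjusted p = 0.00304). NPIPB5, DNAJC25-GNG10, ENSG00000255439, ENSG00000288258 and ENSG00000286192 also belong to the genes named here, but they are members of repeated families or overlap other genes, so their counts are uncertain.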

How the data were processed

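Ribosome footprints of 9 dishes (3 each of WT, G245S and R273H p53) were taken from the table of gene counts that the authors deposited. The values deposited by the authors are estimated counts per gene, not scaled for depth or length and in part not whole, made from footprint reads aligned to GRCh38; they were rounded to whole numbers here. Per the labels and the methods of the study, the authors trimmed reads (Trim Galore, cutadapt), removed rRNA reads, collapsed molecular identifiers (UMI-tools) and aligned to GRCh38 (STAR); the counting tool, strand setting and treatment of reads with several matches are not given in the sources used here. Dishes of a group shared 1 reverse-transcription pool. The methods of the study describe the dishes of a group as separate biological replicates, so p-values measure the spread between dishes of 1 line.

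Genes passing filterByExpr (19820 genes) were fitted over all 9 dishes with edgeR 4.0.16 (R 4.3.3; TMM, quasi-likelihood test, two-sided, robust), with Benjamini-Hochberg adjustment over all genes and a threshold of 0.05. SE is the log2 fold change divided by the square root of F. CPM of a dish uses its TMM-scaled total. Depth was 18719034 to 24595215 counts per dish. Genes were annotated with GENCODE 44 (GRCh38), which matched 62666 of 63241 identifiers. Coding length and GC are of the canonical transcript, and trends with them were removed through offsets (mgcv 1.9.3). Promoter windows came from RefSeq.

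Genes were named by rule: the 12 largest changes per direction among called protein-coding genes that averaged 100 counts or more and whose dishes did not overlap, the 5 most abundant per direction changed at least 1.5-fold, the 5 largest differences from G245S per direction, and up to 4 members of each of 49 gene lists; other members are described with their list. The members and lists were chosen with earlier results of these data known. The gene encoding p53 is not reported here. Alternatives were DESeq2 1.42.0, a minimum fold change of 1.2, other normalizations and filters, the dish number as a block, removal of the trends, and leaving out each dish. The fit was tested on simulated data. Dishes with the same number deviated together only weakly (r between R273H and WT of 0.0953, 0.0421 and 0.188), so numbers were not taken to pair dishes.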

Additional observations from a re-analysis of the deposited data

Results flagged for a closer look

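The effect against WT differed between R273H and G245S in 25 of the 216 genes named, by the direct edgeR test of the mutants. Among all genes tested 2.59% differed. Part of the 25 were named because they passed this same test, so their count is not compared with that share. All values are log2 differences of R273H from G245S. Of p53 targets and genes with large changes, DDB2 was at -0.51 (adjusted p = 4.4e-05), ISYNA1 at -0.15, LIG1 at -0.14 and SERPINI1 at 0.41. Besides DDB2, genes named for their difference between the mutants were DPYSL4 at -0.39, DNAJC25-GNG10 at -0.56, ENSG00000255439 at -0.50 and NUDT8, a mitochondrial hydrolase, at -0.36. On the higher side they were NPIPB5 at 0.66, ENSG00000288258 at 0.56, ENSG00000286192 at 0.48, CLK4 at 0.45 and MAPK8IP3 at 0.45.

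The remainder were list members with smaller differences. H4C16 was at -0.15 and H4C9 at -0.27 among histones, UQCRQ at -0.11, COX8A at -0.17, ATP5MC2 at -0.10, MT-CYB at -0.094 and MT-ATP6 at -0.13 among respiratory subunits, and RPL21 at 0.21 and FAU at -0.089 among ribosomal proteins. HSPA1B, a heat shock protein with a near-identical copy, was at -0.18. ACTG1, a cytoplasmic actin, was at -0.10 and LAMB1, a laminin chain, at -0.13, and both were higher than WT in either mutant. The count of genes that differ between the mutants depended on single dishes, and so did single calls: NUDT8 lost the call in 7 of 18 alternatives and DPYSL4, ENSG00000286192 and ENSG00000288258 in 6 of 18 each.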

How the results depend on the processing

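The count of genes called in R273H against WT was 5707, and it ranged from 4526 to 5829 as single dishes were left out, 4043 by DESeq2 and 5261 with the trends in coding length and GC removed. Against a minimum fold change of 1.2 it was 693, with 268 higher and 425 lower. Against G245S the count of 513 became 3 at that minimum fold, and ranged from 162 to 712 with single dishes left out. With the replicate block by dish number it was 1262 against G245S and 6547 against WT. Between groups, deviations of dishes with the same number correlated at r of 0.0421 to 0.229, and those of different numbers at -0.184 to 0.0583. R273H dish 2 was an exception, nearer to WT dish 1 (r = 0.0583) than to WT dish 2 (r = 0.0421). Whether dishes of a number shared a batch was not tested. Of 4095 values of named genes against WT, 3868 kept direction and call and 222 lost the call (127 of them at the minimum fold). In ICAM1 and TNFAIP3, which were not called, 3 values changed sign. Among called genes 2 did, both of UQCR11, a complex III subunit, at 0.0295 with the trend removed and 0.0294 with the replicate block as well; neither passed the test. Upper-quartile scaling moved the median of all genes to 0.01. List medians changed sign with the trend removed in BCL2 family genes, histones, heat shock proteins, integrins and cadherins, complex III and ATP synthase. The cause of these changes was not tested. Depth limits genes under about 1 CPM, where few were called.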
